A study of Mus musculus with 8 samples.

Results

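The 9 genes described here encode the Fc gamma receptors of the mouse (Fcgr1, Fcgr2b, Fcgr3 and Fcgr4), the signalling adaptors Fcer1g and Tyrobp, the adaptor-paired receptor Trem2, the kinase Syk and the neonatal Fc receptor Fcgrt. They were taken by gene name from a deposited table of 55679 genes, and each name matched 1 row. The table comes from RNA-seq of the left ventricle of male C57BL/6J mice, all wild-type (WT). The control group (4 libraries) was infused with saline for 7 days, and the ANG II group (4 libraries) with 1500 ng/kg/min of the pressor peptide angiotensin II over the same time, both from pumps under the skin. The age of the mice is not given in the sources used here, and blood was washed out of the hearts with saline. Values are FPKM, the fragments of a gene per kilobase of transcript and scaled to the mapped fragments of the library.

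Fc gamma receptors bind the constant part of IgG antibodies on the surface of myeloid cells. Fcgr1, Fcgr3 and Fcgr4 are activating receptors that signal through the adaptor Fcer1g, whose cytoplasmic tail carries an immunoreceptor tyrosine-based activation motif (ITAM). Kinases of the Src family phosphorylate the ITAM, and Syk docks there and passes the signal on to phagocytosis and the oxidative burst. Fcgr2b is the inhibitory receptor of the family and carries an inhibitory motif (ITIM) in its own tail. Tyrobp, also called DAP12, is the ITAM adaptor of receptors such as Trem2, a lipid- and lipoprotein-binding receptor of tissue macrophages. Fcgrt pairs with beta-2-microglobulin and recycles IgG and albumin in endothelial and myeloid cells, and it does not signal through an ITAM.

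Both adaptors carry an ITAM and Fcgr2b an ITIM, and the stretches of coding sequence below are shown because they are the signalling motifs of the group. Capitals mark the tyrosine codons and the hydrophobic codons (and, first in the ITIM, the hydrophobic or serine codon) that define each motif, with 3 codons on either side. Sequences and positions are from GENCODE M21 (GRCm38); each lies on the strand of its gene.
Fcer1g ITAM: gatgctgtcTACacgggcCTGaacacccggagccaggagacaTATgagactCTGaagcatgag
Tyrobp ITAM: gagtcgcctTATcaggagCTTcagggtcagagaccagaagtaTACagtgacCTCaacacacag
Fcgr2b ITIM: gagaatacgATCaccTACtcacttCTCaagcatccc

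The Fcer1g match runs over codons 65 to 79 of 86 (chr1:171229880-171230081, minus strand) and the Tyrobp match over codons 92 to 106 of 114 (chr7:30415661-30417391, plus strand), each across 1 exon junction. The Fcgr2b match lies in codons 317 to 322 of 340 (chr1:170961062-170961097, minus strand), inside 1 exon. The ITAM search (tyrosine, 2 codons, leucine or isoleucine, 6 to 8 codons, then the same again) found a match in 2.85% of 21526 coding genes and in none of the other 7 genes of the group. The ITIM search is loose, with a match in 48.98% of coding genes, so that a match by itself carries little information; Fcgr1, Fcgr4, Fcer1g, Tyrobp and Fcgrt held matches too.

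Of the 9 genes, 4 lie in a cluster on chromosome 1: Fcgr2b (ENSMUSG00000026656, chr1:170958617-170976547, minus strand), Fcgr4 (ENSMUSG00000059089, chr1:171018920-171029761, plus strand), Fcgr3 (ENSMUSG00000059498, chr1:171051174-171064935, minus strand) and Fcer1g (ENSMUSG00000058715, chr1:171229572-171234365, minus strand). The others are Fcgr1 (ENSMUSG00000015947, chr3:96282909-96293969, minus strand), Tyrobp (ENSMUSG00000030579, chr7:30413760-30417585, plus strand), Fcgrt (ENSMUSG00000003420, chr7:45092990-45103851, minus strand), Syk (ENSMUSG00000021457, chr13:52583173-52648792, plus strand) and Trem2 (ENSMUSG00000023992, chr17:48346401-48354147, plus strand).

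Fcgr2b and Fcgr3 are the close pair of the family. Their coding sequences were identical at 86.7% of 782 aligned bases, against 64.1% to 67.4% in the other 5 pairs of Fc gamma receptors. The longest run that both share holds 129 bases and is shown because a fragment that lies wholly inside it fits either gene. It lies at chr1:170966674-170968081 in Fcgr2b and at chr1:171054167-171057792 in Fcgr3, in both across 1 exon junction, in the part that encodes the extracellular domains.
Fcgr2b and Fcgr3: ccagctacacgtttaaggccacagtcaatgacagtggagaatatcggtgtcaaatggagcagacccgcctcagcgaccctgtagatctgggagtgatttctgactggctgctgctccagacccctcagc

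Of the 50-base words of Fcgr3 transcripts, 9.58% also occurred in another gene, all of them in Fcgr2b, and 6.95% of the words of Fcgr2b did, including 2.92% in Fcgr3. The other 7 genes shared no such word. Both these words and the run above are shorter than the reads named in the methods of the study. These shares are thus not shares of ambiguous fragments. How fragments from shared stretches were divided is not given in the sources used here, so the levels of these 2 receptors carry that uncertainty. A further 2.68% of the Fcgr2b exons lie under the antisense gene Gm38204, whose fragments cannot be told apart from those of Fcgr2b without strand.

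The deposited values stepped in whole fragments, which gave 14456183 to 16565400 fragments per library. Fragments of mitochondrially encoded genes made up 26.3% to 27.0% of the control libraries and 19.2% to 21.8% of the ANG II libraries. Values were compared as log2(FPKM + 1) with limma over the 19364 genes that averaged 0.1 FPKM or more, and a gene was called when its Benjamini-Hochberg adjusted P was under 0.05 and its log2 fold change beyond 0.5 in either direction. The median log2 fold change (ANG II minus control) of all tested genes was 0.15. Of the 2981 genes called, 90.8% were higher in ANG II; this share was 67.5% after median-of-ratios scaling, 58.9% after quantile normalization and 81.0% without mitochondrially encoded genes. Heart muscle RNA was abundant, with the cardiomyocyte gene Myh6 at 10370 ± 391 FPKM among controls and 7102 ± 484 under ANG II (SD, n = 4 each), although the extraction text of the labels names another kind of cell; atrium and ventricle, or left and right, were not told apart. The methods of the study call its RNA-seq samples biological replicates, of a set larger than the samples used here; the labels number these samples without tying each to a mouse, so P values measure the spread between these samples.

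All 9 genes were tested, and 8 of them were called higher in ANG II; Fcgrt passed the P threshold but not the fold threshold. The background is 15.4% of all tested genes called in either direction and 14% called higher. In each of the 9 genes the lowest ANG II library lay above the highest control library, which was so for 28.7% of all tested genes (5.06% in the other direction). The median log2 fold change of the 9 genes was 1.34. In whole ventricle, more cells that express a gene and more RNA per cell cannot be told apart.

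**Figure D1:**
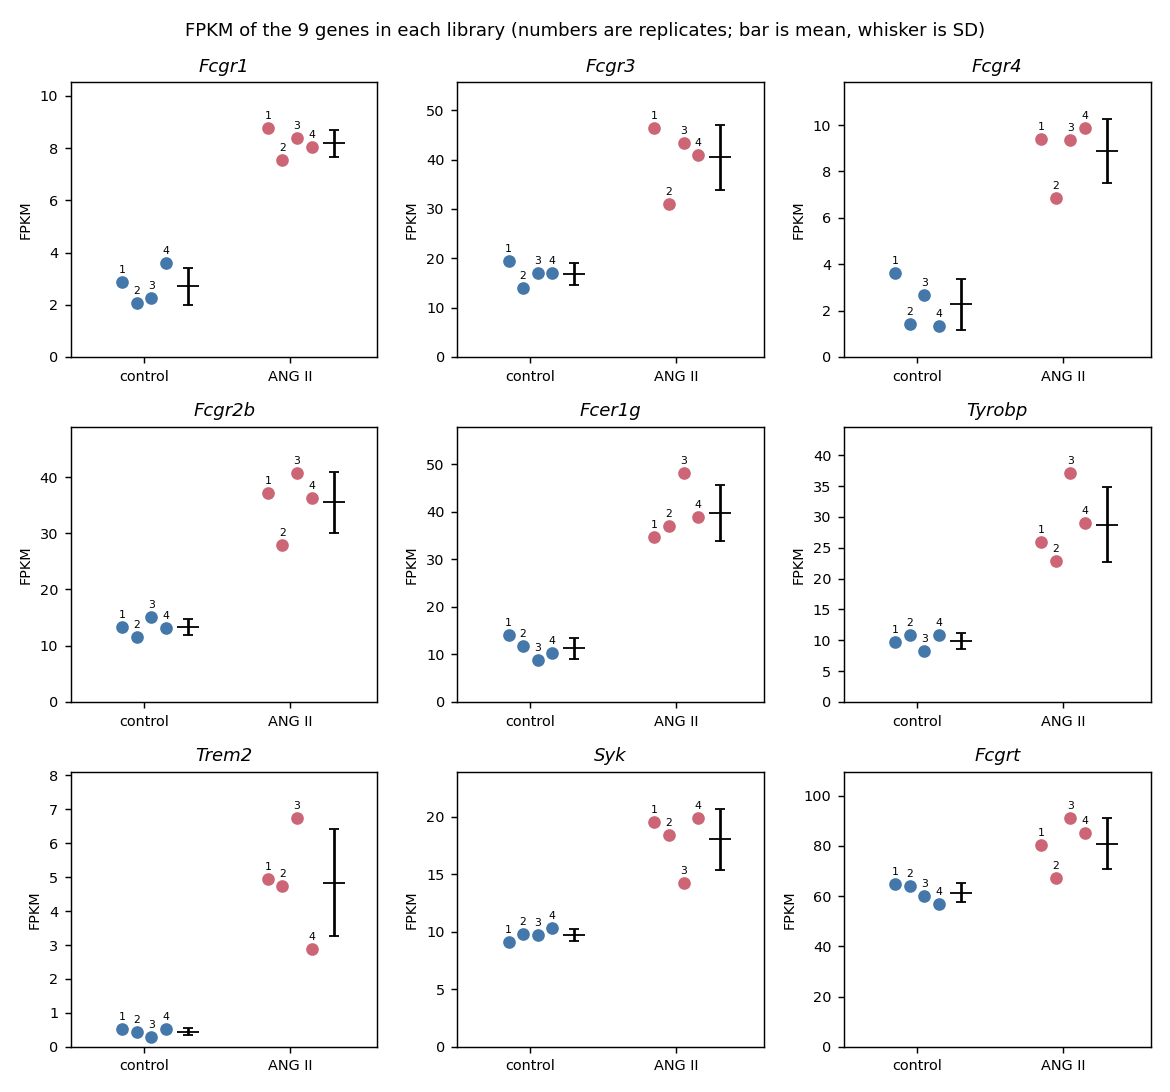
FPKM (vertical axes, from 0, each with its own scale) of the 9 genes in the control and ANG II libraries; points are libraries numbered by replicate, and the bar and whisker beside them are the mean and SD of 4. No panel has an ANG II library at or below a control library, and the gap is narrowest for Fcgrt, with 64.6 in the highest control and 67.1 in the lowest ANG II library.

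Among the activating receptors, Fcgr3, a low-affinity receptor for IgG immune complexes, was the most abundant. It stood at 19.4, 14.0, 17.1 and 17.0 FPKM in control libraries 1 to 4 and at 46.4, 31.1, 43.4 and 40.9 FPKM in ANG II libraries 1 to 4. The groups did not overlap, and ANG II 2 was the lowest of its group. The mean rose from 16.9 ± 2.22 to 40.4 ± 6.62 FPKM (SD, n = 4 each), which is 1.21 on the log2 scale with an SE of 0.128 (limma adjusted P = 0.000121). The study picked Fcgr3 as one of its genes from RNA-seq of the same comparison, so its direction here is no independent evidence.

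Fcgr1, the high-affinity receptor that can bind single IgG molecules, was expressed at a much lower level. It stood at 2.86, 2.06, 2.27 and 3.61 FPKM in the control libraries, and at 8.77, 7.55, 8.38 and 8.05 FPKM in the ANG II libraries, which were close to one another. The mean rose from 2.70 ± 0.693 to 8.18 ± 0.517 FPKM (SD, n = 4 each; log2 fold change 1.33, SE 0.131, limma adjusted P = 8.03e-05). Between 48 and 88 fragments lay behind the control values and between 192 and 212 behind the ANG II values.

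Fcgr4, an activating receptor of intermediate affinity found on monocytes, macrophages and neutrophils, varied most among the control libraries relative to its mean. The control values were 3.64, 1.42, 2.69 and 1.35 FPKM, from 26 to 66 fragments, and the ANG II values 9.40, 6.84, 9.37 and 9.87 FPKM. Control 1 was the highest control library and ANG II 2 stood below the rest of its group. The mean rose from 2.27 ± 1.10 to 8.87 ± 1.37 FPKM (SD, n = 4 each; log2 fold change 1.64, SE 0.219, limma adjusted P = 0.000412).

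The inhibitory receptor Fcgr2b rose along with the activating ones. It stood at 13.4, 11.6, 15.1 and 13.1 FPKM in the control libraries and at 37.2, 27.9, 40.7 and 36.3 FPKM in the ANG II libraries. The mean went from 13.3 ± 1.43 to 35.5 ± 5.44 FPKM (SD, n = 4 each; log2 fold change 1.34, SE 0.116, limma adjusted P = 3.94e-05). ANG II 2 was again the lowest of its group, as it was for 6 of the 9 genes (Fcgr1, Fcgr3, Fcgr4, Fcgr2b, Tyrobp and Fcgrt).

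Both ITAM adaptors were higher in ANG II. Fcer1g stood at 14.1, 11.7, 8.85 and 10.4 FPKM in control and at 34.8, 37.1, 48.1 and 38.9 FPKM in ANG II, with ANG II 3 the highest. The mean rose from 11.3 ± 2.24 to 39.7 ± 5.86 FPKM (SD, n = 4 each; log2 fold change 1.74, SE 0.137, limma adjusted P = 2.33e-05). Tyrobp had control libraries that lay close together, at 9.68, 10.9, 8.24 and 10.8 FPKM. In ANG II it stood at 26.0, 22.9, 37.1 and 29.1 FPKM, again with ANG II 3 the highest, for a mean of 28.8 ± 6.13 against 9.91 ± 1.25 FPKM (SD, n = 4 each; log2 fold change 1.43, SE 0.140, limma adjusted P = 7.8e-05).

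Trem2 had the largest log2 fold change of the 9 genes, from the lowest level. Control libraries held 14, 12, 9 and 15 fragments of Trem2, or 0.520, 0.441, 0.292 and 0.526 FPKM. ANG II libraries held 140, 141, 190 and 86 fragments, or 4.95, 4.74, 6.74 and 2.89 FPKM. The mean was 0.445 ± 0.109 FPKM among controls and 4.83 ± 1.58 FPKM under ANG II (SD, n = 4 each), a ratio of means of 10.9. On the log2(FPKM + 1) scale, which understates the change of low genes, the fold change was 1.98 (SE 0.188, limma adjusted P = 6.77e-05), and it was 3.37 with voom on the recovered fragments. ANG II 4 was the lowest and ANG II 3 the highest of the ANG II libraries.

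Syk, the kinase downstream of both adaptors, was higher as well, with a smaller log2 fold change than either. It stood at 9.12, 9.77, 9.70 and 10.3 FPKM in the control libraries, whose SD was 0.485 around a mean of 9.72. In the ANG II libraries it stood at 19.6, 18.4, 14.2 and 19.9 FPKM, a mean of 18.0 ± 2.62 (SD, n = 4; log2 fold change 0.82, SE 0.102, limma adjusted P = 0.000284). ANG II 3, which was the highest library for Fcer1g, Tyrobp, Trem2, Fcgr2b and Fcgrt, was the lowest of the ANG II libraries for Syk.

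Fcgrt was the most abundant of the 9 genes and the one with the smallest log2 fold change. It stood at 64.6, 64.1, 59.9 and 56.9 FPKM in control and at 80.2, 67.1, 91.1 and 85.1 FPKM in ANG II. The mean was 61.4 ± 3.65 FPKM among controls and 80.9 ± 10.2 FPKM under ANG II (SD, n = 4 each), and the log2 fold change was 0.39 (95% confidence interval 0.19 to 0.58, limma adjusted P = 0.00825). The fold change was 0.24 above the median of all tested genes, and 28.4% of tested genes had an adjusted P under 0.05 with a higher level in ANG II. Other scalings took its adjusted P above 0.05: the log2 fold change was 0.16 after median-of-ratios scaling (limma adjusted P = 0.188), 0.22 after quantile normalization (limma adjusted P = 0.088) and 0.27 without mitochondrially encoded genes (limma adjusted P = 0.0636).

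**Figure D2:**
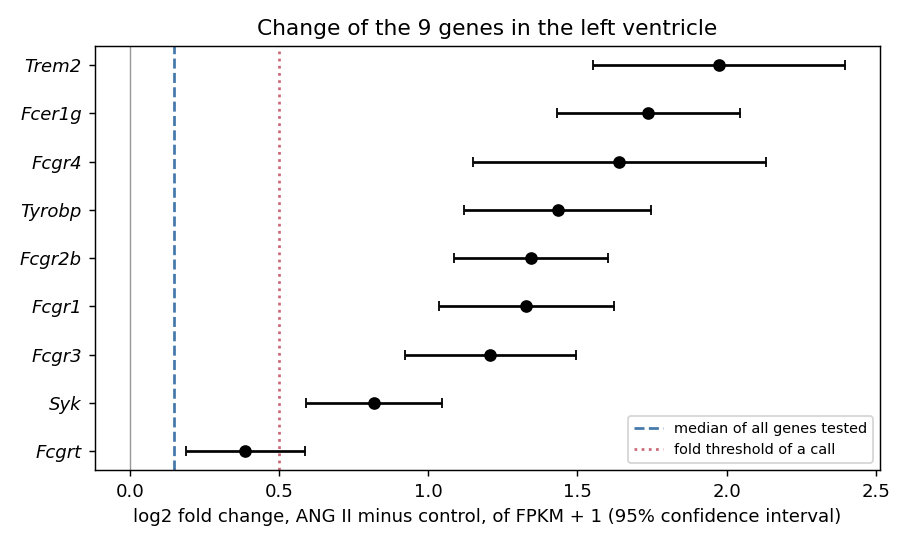
Log2 fold change of FPKM + 1 (horizontal axis, ANG II minus control) of the 9 genes with its 95% confidence interval from limma; the dashed line is the median of all tested genes (0.15) and the dotted line the fold threshold of a call (0.5). Fcgrt, at 0.39, is the only gene left of the dotted line, and Trem2, at 1.98, is farthest to the right.

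FPKM is scaled by transcript length, and the deposited values stepped in whole fragments with the mean length of the annotated transcripts of a gene. The order of levels between genes therefore depends on that annotation as well as on the RNA. In control the order of mean FPKM was Fcgrt, Fcgr3, Fcgr2b, Fcer1g, Tyrobp, Syk, Fcgr1, Fcgr4 and Trem2. The ranges of neighbours in that order overlapped from Fcgr3 down to Syk and between Fcgr1 and Fcgr4, and did not overlap at the other steps. In ANG II the order was Fcgrt, Fcgr3, Fcer1g, Fcgr2b, Tyrobp, Syk, Fcgr4, Fcgr1 and Trem2, with overlap from Fcgr3 down to Tyrobp and between Fcgr4 and Fcgr1.

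Ratios within a library show whether the genes moved by like amounts, and 10 ratios were compared by exact two-sided permutation tests, in which 4 against 4 libraries cannot give a P below 0.0286. The activating-to-inhibitory ratio Fcgr3 / Fcgr2b was 1.27 ± 0.139 among controls and 1.14 ± 0.0769 under ANG II (SD, n = 4 each; exact permutation P = 0.171, adjusted over the 10 ratios 0.214). For Fcgr1 / Fcgr2b it was 0.204 ± 0.0538 and 0.234 ± 0.0277 (exact permutation P = 0.343). For Fcgr4 / Fcgr2b the mean was 0.169 in control and 0.250 in ANG II (exact permutation P = 0.114), and control 1, at 0.272, lay within the ANG II range. These 3 ratios of activating to inhibitory receptors overlapped between the groups.

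The groups did not overlap in 3 of the 10 ratios, each at the smallest P the design allows (0.0286, adjusted 0.0952), so none passed after adjustment. Fcgr4 / Fcgr3 stood at 0.187, 0.101, 0.158 and 0.0798 in control and at 0.203, 0.220, 0.216 and 0.241 in ANG II. Trem2 / Tyrobp, receptor over adaptor, stood at 0.0537, 0.0405, 0.0354 and 0.0485 in control and at 0.191, 0.208, 0.182 and 0.0993 in ANG II. Syk / Fcer1g, kinase over adaptor, stood at 0.645, 0.834, 1.10 and 0.992 in control and at 0.563, 0.497, 0.295 and 0.511 in ANG II. The Fcgr4 and Trem2 ratios were higher in every ANG II library and the Syk ratio lower. With 1 added to each FPKM, which pulls low values together, the log2 difference of Fcgr4 / Fcgr3 went from 0.82 to 0.43 and that of Trem2 / Tyrobp from 1.90 to 0.54, with overlapping groups (exact permutation P = 0.0571 and 0.0857).

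The other 4 ratios overlapped between the groups. Fcer1g over the summed activating receptors had a mean of 0.523 in control and 0.701 in ANG II (exact permutation P = 0.143), and Tyrobp / Fcer1g one of 0.897 and 0.721 (exact permutation P = 0.114). Fcgr1 / Fcgr3 had a mean of 0.160 in control and 0.205 in ANG II (exact permutation P = 0.114). As shares of the summed FPKM of the 4 Fc gamma receptors, Fcgr3 made up 48.0 ± 1.47% in control and 43.4 ± 1.48% in ANG II, Fcgr2b 38.0 ± 2.99% and 38.2 ± 1.40%, Fcgr1 7.69 ± 1.80% and 8.90 ± 0.941%, and Fcgr4 6.31 ± 2.42% and 9.54 ± 0.563% (SD, n = 4 each). The share of Fcgr3 was lower in every ANG II library (42.4% to 45.6%) than in every control library (45.9% to 49.4%), and the other 3 shares overlapped; the shares were not tested. Fcgr3 and Fcgr2b together made up most of the summed FPKM of the 4 receptors in both groups.

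**Figure D3:**
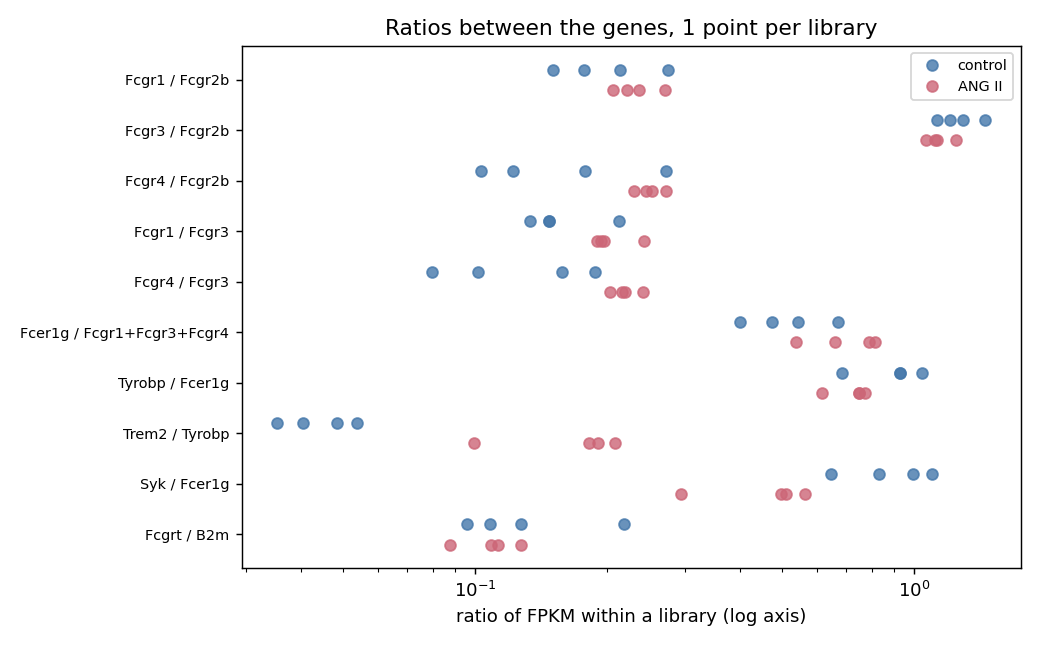
The 10 ratios of FPKM within a library (horizontal log axis), 1 point per library, control above ANG II in each row. The 2 groups are apart for Fcgr4 / Fcgr3, Trem2 / Tyrobp and Syk / Fcer1g and overlap in the other rows.

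Markers of macrophages moved with the Fc gamma receptors. All 9 macrophage markers tested were called higher in ANG II, the median log2 fold change being 1.43, and their summed FPKM ranged from 176 to 218 in control and from 435 to 585 in ANG II. Their mean log2(FPKM + 1) went from 3.92 ± 0.133 to 5.26 ± 0.173 (SD, n = 4 each; exact permutation P = 0.0286). The leukocyte marker Ptprc rose from 7.55 ± 2.50 to 21.2 ± 3.21 FPKM (SD, n = 4 each; log2 fold change 1.41, limma adjusted P = 0.000412). All 7 monocyte and neutrophil markers tested were also called higher, with sums of 4.54 to 14.0 FPKM in control and 26.7 to 41.2 in ANG II. After quantile normalization 8 of the 9 macrophage markers and 6 of the 7 monocyte and neutrophil markers were called higher. The part of these cells in the changes of the 9 genes was not tested.

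Each gene was also set against the mean of the 9 macrophage markers in the same library, on the log2(FPKM + 1) scale. The difference between groups was then -0.02 for Fcgr1, -0.14 for Fcgr3, -0.003 for Fcgr2b, 0.09 for Tyrobp and 0.29 for Fcgr4, with exact permutation P from 0.257 to 0.971. For these 5 genes the groups overlapped once the markers were subtracted. With each library left out in turn, the difference ran from -0.10 to 0.13 for Fcgr1, from -0.22 to -0.07 for Fcgr3, from -0.06 to 0.09 for Fcgr2b, from 0.02 to 0.16 for Tyrobp and from 0.17 to 0.42 for Fcgr4, so that those of Fcgr1 and Fcgr2b changed sign. Fcer1g gained 0.39 and Trem2 0.63 on the markers, and Fcgrt lost 0.96, each without overlap between the groups (exact permutation P = 0.0286, adjusted over the 9 genes 0.0857). Syk differed by -0.53 (exact permutation P = 0.0571, adjusted 0.129). None of the 9 differences passed after adjustment. Against Ptprc in place of the marker mean, the Fcer1g and Trem2 differences were 0.33 and 0.56 with overlapping groups (exact permutation P = 0.2 and 0.171).

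Markers of other cells that carry Fc receptors or ITAM adaptors behaved differently from list to list. Of 5 natural killer cell markers tested, Nkg7 was called higher (log2 fold change 1.24, limma adjusted P = 0.0153) and 4 were not called, and the summed markers stood at 0.491 to 4.60 FPKM in control and 3.07 to 7.20 in ANG II. Without ANG II 2, Gzma was called higher too. None of 4 mast cell markers tested was called (Mcpt4 was called lower after quantile normalization, where Nkg7 was not called), and Fcer1a and Ms4a2, which define the mast cell IgE receptor that also uses Fcer1g, were too low to be tested. Of 7 B and plasma cell markers, Mzb1 was called lower (log2 fold change -0.76, limma adjusted P = 0.00793) and none was called higher. Of 6 dendritic cell markers 3 were called higher (2 with quantile or median-of-ratios scaling), and their sums stood at 13.5 to 18.4 FPKM in control and 17.5 to 23.5 in ANG II. Of 4 platelet markers tested only Pf4 was called (log2 fold change 1.11, limma adjusted P = 0.000799), and Gp6, the platelet collagen receptor that signals through Fcer1g, was too low to be tested.

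Red cell RNA differed as well. All 5 erythroid markers were called higher in ANG II (median log2 fold change 2.63), with sums of 96.8 to 487 FPKM in control and 581 to 2083 in ANG II. ANG II 2, the lowest ANG II library for 6 of the 9 genes, had the highest erythroid and platelet sums (2083 and 85.6 FPKM), and control 1 had the highest erythroid sum among the controls (487 FPKM). Without ANG II 2, and without control 1, the number of the 9 genes called remained 8. Of 9 endothelial markers, Stab1, Vwf and Pecam1 were called higher and 6 were not called; endothelial cells are a main site of Fcgrt. Of 8 cardiomyocyte markers, Myh6 and Tnni3 were called lower. Under the 3 other scalings only Stab1 of the endothelial markers was called higher, and 1 to 5 cardiomyocyte markers were called lower. After quantile normalization that was Pln alone, and Myh6 and Tnni3 were not called. The part of these cells in the changes of the 9 genes was not tested.

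Transcripts of the IgG heavy chains were measured in the ventricle. The IgG protein that the receptors bind was not measured, and these transcripts do not give its amount. Ighg1 and Ighg3 were too low to be tested, with 0 fragments in every control library, which allows up to 3 fragments per library. Ighg2c stood at 9.64, 0.412, 2.02 and 1.35 FPKM in control and at 2.10, 1.67, 2.67 and 3.28 in ANG II, so that control 1 exceeded every ANG II library (log2 fold change 0.07, limma adjusted P = 0.932). Ighm, the heavy chain of IgM, was called higher, from 3.85 ± 1.23 to 8.09 ± 1.99 FPKM (SD, n = 4 each; limma adjusted P = 0.00556), and so was Ighd, with a log2 fold change of 0.59 (limma adjusted P = 0.022). The call of Ighd was lost under median-of-ratios scaling, under quantile normalization and without ANG II 2. Of the 8 immunoglobulin genes tested, the other 6 were not called, and Igha ranged from 2.65 to 26.2 FPKM within the ANG II group. Neither of the 2 IgG heavy chain genes tested, Ighg2b and Ighg2c, was called.

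Other members of the Fc receptor family were mostly low. Of 7 tested, Fcrls, an Fc receptor-like gene of tissue macrophages, was called higher, at 5.42, 7.58, 5.83 and 4.94 FPKM in control and 29.4, 25.4, 26.9 and 23.4 FPKM in ANG II (log2 fold change 1.98, limma adjusted P = 5.23e-06). Fcrla and Fcrlb, expressed in B cells, stayed under 1 FPKM on average and were not called (Fcrla was without ANG II 2, without control 1 and without mitochondrially encoded genes), and the cytosolic antibody receptor Trim21, chosen after its values were seen, stood at 7.15 ± 1.29 and 8.13 ± 1.80 FPKM (SD, n = 4 each; limma adjusted P = 0.509).

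Of 21 tested receptors listed as partners of Fcer1g or Tyrobp, 14 were called higher (among them Csf1r, also a macrophage marker here) and 7 were not called. After quantile or median-of-ratios scaling 12 were called higher. The median log2 fold change of the 21 was 0.78. Whether each listed receptor, Csf1r among them, pairs with an adaptor was not checked. The largest changes were those of Clec4n, which is dectin-2 and binds fungal mannans through Fcer1g (1.70 ± 0.674 to 11.8 ± 2.65 FPKM, SD, n = 4 each; log2 fold change 2.26, limma adjusted P = 4.22e-05), of Cd300c2 (1.74, adjusted P = 1.83e-05 by limma) and of Clec4d (1.67, adjusted P = 0.000281 by limma). Ncr1, Oscar and Siglech, receptors of natural killer cells, osteoclasts and plasmacytoid dendritic cells, stayed under 1 FPKM on average and were not called (chosen after their values were seen). Of the 7 signalling chains of T, B and natural killer cells (Cd3d, Cd3e, Cd3g, Cd247, Cd79a, Cd79b and Hcst), none was called, with log2 fold changes from 0.13 to 0.60; Cd3d and Hcst (0.60 and 0.56) passed the fold threshold but not the P threshold. The T cell signalling genes Lck, Zap70 and Lat, listed with the kinases and adaptors around Syk and chosen after their values were seen, were called higher (log2 fold changes 0.93, 0.80 and 0.86; limma adjusted P = 0.012, 0.000999 and 0.0142). The call of Lck was lost after quantile normalization. Without control 1, 3 of the 7 chains were called higher.

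Among 33 kinases and adaptors around Syk, 21 were called higher and none lower, with a median log2 fold change of 0.81. Pik3r5, a regulatory subunit of PI3-kinase gamma, rose from 1.06 ± 0.288 to 4.78 ± 0.544 FPKM (SD, n = 4 each; log2 fold change 1.50, limma adjusted P = 4.19e-05). Vav1, a guanine nucleotide exchange factor for Rac in blood cells, and Fgr, a Src-family kinase of myeloid cells, had log2 fold changes of 1.47 and 1.43 (limma adjusted P = 5.8e-05 and 2.28e-05). Syk-pathway genes not called included Fyn (36.9 ± 1.69 and 37.3 ± 3.90 FPKM, SD, n = 4 each), Plcg1 and Grb2, whereas Src, of the same family as Fyn, was called higher (log2 fold change 0.84, limma adjusted P = 0.000455); these 4 were chosen after their values were seen.

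The effectors of phagocytosis and the oxidase followed. Of 16 tested, 14 were called higher, and Rac1 and Cdc42 were not called (Cdc42 was without ANG II 2 and without control 1); the median log2 fold change was 1.14. Cybb, the catalytic subunit of the phagocyte NADPH oxidase, rose from 11.3 ± 0.699 to 35.6 ± 2.62 FPKM (SD, n = 4 each; log2 fold change 1.57, limma adjusted P = 1.9e-06). Rac2, the Rac of blood cells, and Ncf4, a cytosolic oxidase subunit, each had a log2 fold change of 1.40 (limma adjusted P = 0.00049 and 4.27e-05).

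The inhibitory side of the pathway was higher too. Of 26 genes listed as ITIM receptors or as phosphatases and adaptors that act with them, 21 were called higher and none lower. Their median log2 fold change was 0.92. Whether each listed receptor, Lilr4b among them, carries an ITIM was not checked. Cd72, an ITIM receptor of B cells and myeloid cells, rose from 1.94 ± 0.543 to 14.3 ± 1.42 FPKM (SD, n = 4 each; log2 fold change 2.39, limma adjusted P = 3.96e-06). Dok1, an adaptor that damps tyrosine kinase signals, and Lilr4b, of the leukocyte Ig-like receptor family, had log2 fold changes of 1.97 and 1.86 (limma adjusted P = 1.19e-05 and 3.96e-06). Inpp5d, the lipid phosphatase SHIP1 that Fcgr2b recruits, rose from 4.89 ± 0.516 to 11.3 ± 1.20 FPKM (log2 fold change 1.07, limma adjusted P = 5.57e-05), and Ptpn6, which is SHP-1, had a log2 fold change of 1.45 (limma adjusted P = 0.000153); both were chosen after their values were seen. Activating and inhibitory genes of the pathway were thus called in 1 direction only, higher. Under the 3 other scalings, 17 to 21 of the kinases, 13 to 14 of the effectors and 15 to 20 of the inhibitory genes were called higher and none lower.

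Trem2 binds lipoproteins and other ligands and is shed by proteases. Of 7 such ligands, partners and proteases tested, 5 were called higher, led by Lgals3 (galectin-3; 3.72 ± 1.18 to 34.9 ± 5.13 FPKM, log2 fold change 2.95, limma adjusted P = 4.7e-06) and Clu (clusterin; 518 ± 53.6 to 2596 ± 470 FPKM, log2 fold change 2.31, limma adjusted P = 5.06e-06; SD, n = 4 each). Ms4a6d had a log2 fold change of 1.87 (limma adjusted P = 0.000109). Of the proteases that shed Trem2, Adam10 was called higher (log2 fold change 0.69, limma adjusted P = 4.27e-05; not called after median-of-ratios scaling) and Adam17 was not called; both were chosen after their values were seen. The partner of Fcgrt, B2m, stood at 674, 293, 554 and 448 FPKM in control and at 917, 527, 809 and 782 in ANG II, with overlapping groups, and was not called (log2 fold change 0.66, limma adjusted P = 0.066), though it was without ANG II 2 and without control 1. Fcgrt / B2m had a mean of 0.137 in control and 0.109 in ANG II (exact permutation P = 0.514), and the log2 difference of -0.27 came to -0.02 without control 2, where the ratio was 0.218.

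**Figure D4:**
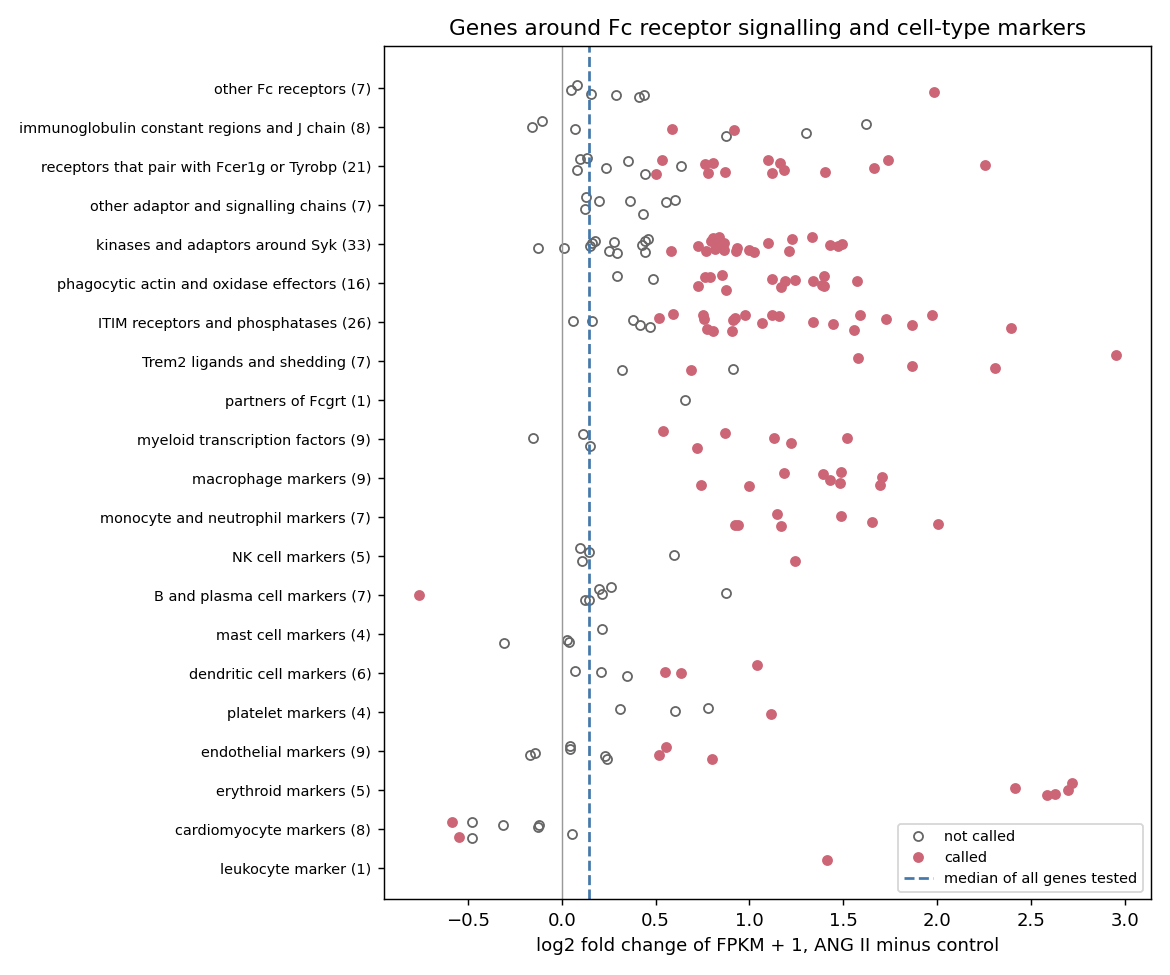
Log2 fold change of FPKM + 1 (horizontal axis, ANG II minus control) of every tested gene in the lists of pathway genes and cell-type markers, with the number tested in parentheses; filled points are called, open points are not, and the dashed line is the median of all tested genes (0.15). The effectors, the inhibitory genes and the macrophage and monocyte markers lie almost wholly to the right of the line, whereas the genes in the rows of other signalling chains, B and plasma cell markers and mast cell markers lie between -0.76 and 0.88.

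Within the cluster on chromosome 1, the Fc receptor genes and Fcer1g had larger log2 fold changes of FPKM + 1 than the tested genes between and beside them, except Adamts4. The window from 100 kb before Fcgr2b to 100 kb after Fcer1g holds 31 other genes, of which 22 were tested. Of these 22, Adamts4, a secreted protease, was called higher (0.943 ± 0.245 to 3.67 ± 1.17 FPKM, SD, n = 4 each; log2 fold change 1.24, limma adjusted P = 0.000958), and the other 21 were not called. The median log2 fold change of the 22 was 0.10. Fcrlb and Fcrla, beside Fcgr2b, were among the 21. They rose from 0.0133 to 0.240 and from 0.124 to 0.519 FPKM on average (limma adjusted P = 0.0337 and 0.0237). No control library held more than 1 and 5 of their fragments. Their log2 fold changes, 0.287 and 0.437, are understated by the 1 added to each FPKM. Sdhc, a subunit of respiratory complex II that lies between Fcgr3 and Fcer1g, stood at 248 ± 6.22 FPKM among controls and 195 ± 10.2 under ANG II (SD, n = 4 each; log2 fold change -0.34, limma adjusted P = 0.00062), under the fold threshold.

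**Figure D5:**
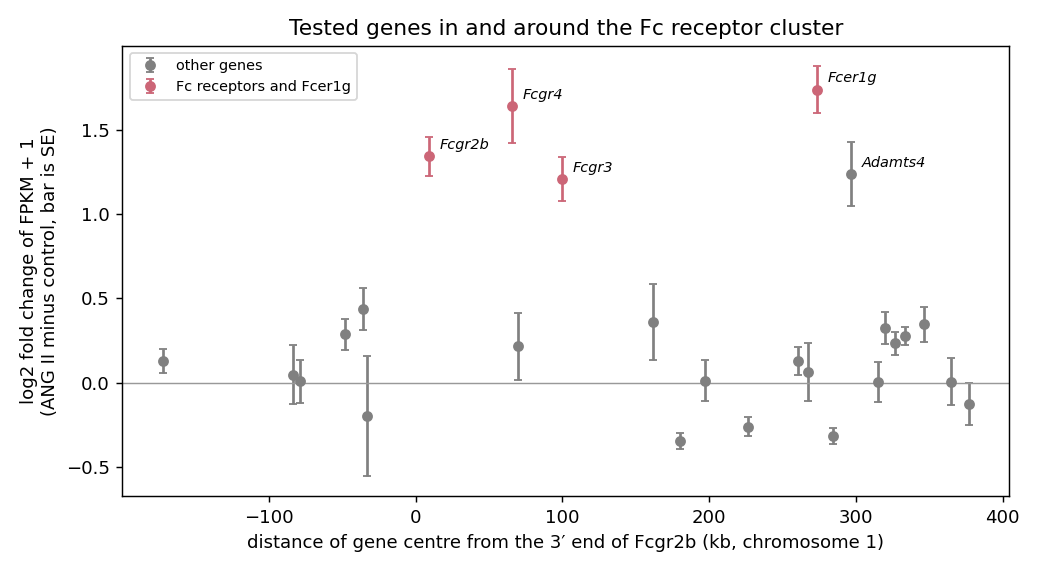
Log2 fold change of FPKM + 1 (vertical axis, ANG II minus control, with its SE from limma) of tested genes against the distance of the gene centre from the 3′ end of Fcgr2b in kb. Fcgr2b, Fcgr4, Fcgr3 and Fcer1g lie between 1.21 and 1.74, and all other genes but Adamts4 (1.24) lie under 0.44.

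The myeloid transcription factor Spi1 (PU.1), which is known to act at promoters of myeloid genes, was called higher, from 5.92 ± 1.17 to 18.7 ± 1.55 FPKM (SD, n = 4 each; log2 fold change 1.52, limma adjusted P = 1.92e-05). Irf8 and Irf5 had log2 fold changes of 1.22 and 1.13 (limma adjusted P = 0.000305 and 0.000127), and 6 of 9 myeloid transcription factors were called higher in all (5 under each of the 3 other scalings). For this reason the promoters of the group were searched, on both strands, for the PU.1 core GAGGAA and the AP-1 site TGANTCA, whose matches do not overlap in these promoters. RefSeq promoters (GRCm38.p6; 250 bases before to 50 after a start site) were found for 8 of the 9 genes.

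GAGGAA occurred in the promoter of 5 of these 8 genes (Fcgr1, Fcgr3, Fcgr4, Trem2 and the downstream of 2 start sites of Syk), and in 28.3% of 32851 mouse promoters of that length. It was not in the windows of Fcgr2b, Fcer1g and Fcgrt. The count is of genes, with a match at any start site, and the share is of single promoters, so their units differ. The AP-1 site was in Trem2 alone (7.81% of all promoters). The 120 bases before the start site are shown for 4 genes, with matches in capitals, because the PU.1 core lies on the opposite strand (TTCCTC) in each: its first base is 55 bases before the start in Fcgr1, 22 in Fcgr4, 40 in Trem2, and 6 or 15 for the 2 start sites of Fcgr3, of which the latter is shown.
Fcgr1 (chr3:96293970-96294089, minus strand): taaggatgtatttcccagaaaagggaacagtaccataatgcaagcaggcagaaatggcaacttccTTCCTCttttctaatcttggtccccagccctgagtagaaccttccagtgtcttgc
Fcgr3 (chr1:171059395-171059514, minus strand): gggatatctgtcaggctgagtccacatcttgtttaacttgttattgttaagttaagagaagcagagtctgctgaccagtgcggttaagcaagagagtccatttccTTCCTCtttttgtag
Fcgr4 (chr1:171018806-171018925, plus strand): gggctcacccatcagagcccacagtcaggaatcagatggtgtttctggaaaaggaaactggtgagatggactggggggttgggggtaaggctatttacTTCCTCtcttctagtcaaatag
Trem2 (chr17:48346281-48346400, plus strand): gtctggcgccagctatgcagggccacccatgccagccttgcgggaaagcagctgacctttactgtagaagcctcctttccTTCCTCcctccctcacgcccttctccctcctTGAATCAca

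A match is a description of the letters and no binding was measured here. All 5 genes with the core were called higher. Of the 3 without it, Fcgr2b and Fcer1g were called higher, with log2 fold changes of 1.34 and 1.74, and Fcgrt, at 0.39, was not called.

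Over the 8 libraries, the genes most like 8 of the 9 in log2(FPKM + 1), among 12947 that averaged 1 FPKM or more, were Ptprc and Pld4 for Fcgr4. They were Iqgap2 and Slc25a24 for Fcgr3, Arf3 and Anxa4 for Fcgr1, Sra1 and Tbc1d13 for Fcer1g, Slc39a9 and Gpsm3 for Tyrobp, Meg3 and Ube2w for Trem2, Pcgf2 and Serpinb1c for Syk, and Zfp263 and Sub1 for Fcgrt. Since the libraries form 2 separate groups for each of the 9 genes, this likeness mostly reflects the difference between groups, and no coefficient is given.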

How the data were processed

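Left ventricle samples, 4 control and 4 ANG II, were measured by RNA-seq (oligo(dT) enrichment, paired-end Illumina reads). The authors deposited FPKM values, 1 column per library. Their processing notes name Bowtie2, HISAT and RSEM; versions, genome build, annotation and use of strand are not given in the sources used here. Groups came from the treatment labels.

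Values were used as deposited. Fragments were recovered from the steps of the values and mean GENCODE M21 transcript lengths; 98.1% to 98.5% of values under 60 fragments came out whole within 0.05 of a fragment. Floors of 3 fragments cover counting error only; confidence intervals are those of limma, from the spread between libraries. limma 3.58.1 in R 4.3.3 (variance trend, no block) was run on log2(FPKM + 1) for genes that averaged 0.1 FPKM or more, with Benjamini-Hochberg adjustment over all genes tested; the 2 thresholds follow the study. The fit was tested on simulated data. Ratios and differences from macrophage markers were compared by exact two-sided permutation over 70 allocations. Other steps used Python 3.11.15 with pandas 2.3.3, numpy 2.4.6 and matplotlib 3.10.9. Alternatives changed the pseudocount, filter, scaling, trend, block, thresholds and libraries; the list counts under other scalings and without 2 libraries were chosen after seeing the data.

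The genes, lists and tests were chosen with earlier results of these data known. The text names all 9 genes, up to 3 called genes per list with the largest absolute log2 fold change, markers and partners that touch a result, the 2 most alike genes, and genes of the cluster; any other is marked in the text. Gene IDs of 55141 of 55679 genes were found in GENCODE M21, from which positions and coding sequences were read (the principal isoform); promoters are from RefSeq. No 2 libraries agreed within sampling noise. Some genes that the naming rule picks are not reported here singly; counts keep them.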

Additional observations from a re-analysis of the deposited data

Results flagged for a closer look

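In 56 sets of 4 libraries (levels, ratios and differences from macrophage markers of the 9 genes), 4 had a library that stood apart by Dixon's criterion, where chance gives about 1 in 20. Fcgr4 was low in ANG II 2, at 6.84 FPKM, with a gap of 0.837 of the range of its group. The ratio Fcgr1 / Fcgr3 was high in ANG II 2, at 0.243 (0.858 of the range), and the ratio Tyrobp / Fcer1g was low there, at 0.616 (0.845 of the range). Fcer1g minus the macrophage markers was low in ANG II 1, at -0.18 on the log2 scale (0.860 of the range). ANG II 2 also had the highest erythroid and platelet sums; whether this bears on the 3 values was not tested.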

How the results depend on the processing

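The number of the 9 genes called was 8 in each alternative fit except 7 with an absolute log2 fold change above 1, where Syk was lost, and 9 with no fold threshold; each library left out in turn gave 8. All genes changed numbered 795 above a log2 fold change of 1 and 6447 with no fold threshold, against 2981, and 2763 to 3109 with each library left out. Libraries of the same number did not vary together more than others (correlations of deviations of -0.0123, 0.0921, -0.0433 and 0.000736 for the 4 numbers). This cannot show whether samples were paired, which the labels do not say. With the replicate number as a block, 2968 genes and 8 of the 9 were called. For ratios and marker differences a block cannot give a P below 0.125. voom on the recovered fragments called 3987 genes and 8 of the 9. With 1 added to each FPKM, the log2 difference of Fcgr1 / Fcgr2b turned from 0.22 to -0.015, and those of Fcgr4 / Fcgr3 and Trem2 / Tyrobp fell to 0.43 and 0.54 with overlap. With each library left out in turn, the log2 difference of Fcgr1 / Fcgr2b ran from 0.09 to 0.38. That of Fcgr3 / Fcgr2b ran from -0.21 to -0.09 and that of Fcgr4 / Fcgr2b from 0.47 to 0.93. Against Csf1r alone, the differences of Fcgr1, Fcgr3 and Fcgr2b turned to 0.145, 0.024 and 0.160, and that of Fcgr1 to 0.15 with a pseudocount of 0.1. Against Ptprc alone, Fcgr4 stood at 0.23 without overlap, and Fcer1g and Trem2 at 0.33 and 0.56 with overlap; Fcer1g stood at 0.37 with overlap at a pseudocount of 0.1. The cause of these shifts was not tested. Depth limits Trem2 in control, at 9 to 15 fragments, and Fcgr4, at 26 to 66.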
